A study of Mus musculus with 5 samples.

Results

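Mitochondrial ribosomal protein genes were followed in RNA-seq of sorted mouse haematopoietic stem cells (HSCs). The members were the rows of the deposited expression table whose symbol is Mrpl or Mrps followed by a digit, and there were 72 of them among 11643 genes. By structure, 48 encode proteins of the large subunit and 23 proteins of the small subunit. Mrps18a and Mrps30 were counted with the large subunit, where their proteins sit despite their names. The last member, Mrps36, encodes a protein now known as a component of the alpha-ketoglutarate dehydrogenase complex and was counted with neither subunit.

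The design sets HSCs without the co-repressors Tle1, Tle3 and Tle4 beside control HSCs. The 2 libraries labelled Tle1/3/4-deficient came from C57BL/6 mice in which floxed Tle1, Tle3 and Tle4 alleles were to be removed by Vav-Cre, which acts in all blood cells and not in HSCs alone. The 3 control libraries came from C57BL/6 mice labelled as control, with library names that begin with VavC. Whether these mice carried floxed alleles or Vav-Cre is not stated in the sources used here. Neither is the age of the mice or whether animals were pooled. All cells came from bone marrow and were sorted for c-Kit, Sca-1 and CD150 and against lineage markers and CD48.

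The mitochondrial ribosome translates the few messages of the mitochondrial genome, all of which encode inner-membrane subunits of the respiratory chain and ATP synthase. Its RNA is made in the organelle, whereas its proteins are encoded in the nucleus, translated in the cytosol and imported. Many descend from bacterial ribosomal proteins, and others were added during the evolution of mitochondria. HSCs are known for low reliance on respiration while quiescent and for a rise in mitochondrial activity as they divide and differentiate. In bulk libraries, fewer cells of a type and less RNA per cell cannot be told apart.

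Expression was given in FPKM, fragments per kilobase of transcript and of library size. Among the targeted genes, Tle3 read 32.3 and 31.6 FPKM in the libraries labelled deficient and 2.48, 4.97 and 5.61 FPKM in the controls, which goes against the label, so every direction below rests on labels. Tle4 was at 0.353 and 0.203 FPKM against 5.67, 0.0129 and 5.29 FPKM, and Tle1 at 2.84 and 4.37 FPKM against 1.83, 0.811 and 3.33 FPKM. Exons outside the floxed parts can count toward such gene-level values, and their part in them was not tested. The summed level of 10 granulocyte markers was 11156 and 66225 FPKM in deficient-labelled replicates 1 and 2, against 563 to 3039 FPKM in the controls, and none of the 10 was at 0 in any library. It made up 11.1% of all FPKM in deficient-labelled replicate 2, against 1.63% in replicate 1 and 0.0912% to 0.473% in the controls. Summed megakaryocyte markers (8 genes) were at 8193 and 3682.5 FPKM, against 407 to 1121 FPKM in the controls, with Selp at 0 in control replicate 2. Erythroid markers (6 of 10 in the table) summed to 139 and 306 FPKM, against 32.2 to 66.1 FPKM, with Alas2 at 0 in control replicate 1. Of the genes behind the sort, Ly6a (Sca-1) was at 155 and 14.0 FPKM against 57.8 to 199 FPKM, Cd48 at 7.19 and 23.4 FPKM against 3.22 to 13.01 FPKM, and the groups overlapped in both. Kit was at 102.3 and 101.6 FPKM against 165, 185 and 149 FPKM, below every control, and Slamf1 (CD150) at 31.8 and 31.0 FPKM against 14.9, 24.0 and 21.1 FPKM, above every control.

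All 72 members reached a mean of at least 1 FPKM, the level required for testing, so the filter removed none. In 5 members (6.94%) at least 1 library was listed at exactly 0, against 15.6% of the 10570 genes tested. Mrpl2, a homologue of a conserved bacterial protein near the peptidyl transferase centre, read 109 and 108 FPKM in the libraries labelled deficient, against 81.0, 145 and 0 FPKM in control replicates 1, 2 and 3. Mrps16 was at 221 and 122 FPKM against 172, 0 and 247 FPKM, and Mrpl49 at 34.4 and 28.1 FPKM against 0, 30.6 and 36.0 FPKM. Mrpl55 was at 36.7 and 0 FPKM, against 34.9, 26.3 and 77.5 FPKM in the controls. Mrpl47 was at 0 and 27.5 FPKM, against 49.7, 0 and 0 FPKM, so it was listed at 0 in both groups. Apart from Mrpl47, each of these genes had a single 0 beside values of 26.3 FPKM or more, and no fold change is printed for the 5. They are part of the counts and medians over 72 members below. In such a table an exact 0 can be a failed estimate.

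The members were well expressed. Their mean over the 5 libraries had a median of 61.8 FPKM and quartiles of 40.5 and 131 FPKM, against a median of 15.8 FPKM over all genes tested, and 83.8% of tested genes lay below the member median. In 67 of 72 members the mean exceeded the median tested gene. Levels nevertheless spanned 52.7-fold between members, with Mrpl52 at 519.5 FPKM and Mrpl1 at 9.86 FPKM, although most of these proteins are present once per ribosome. On average 24 members exceeded 100 FPKM and 7 were under 20 FPKM.

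**Figure D1:**
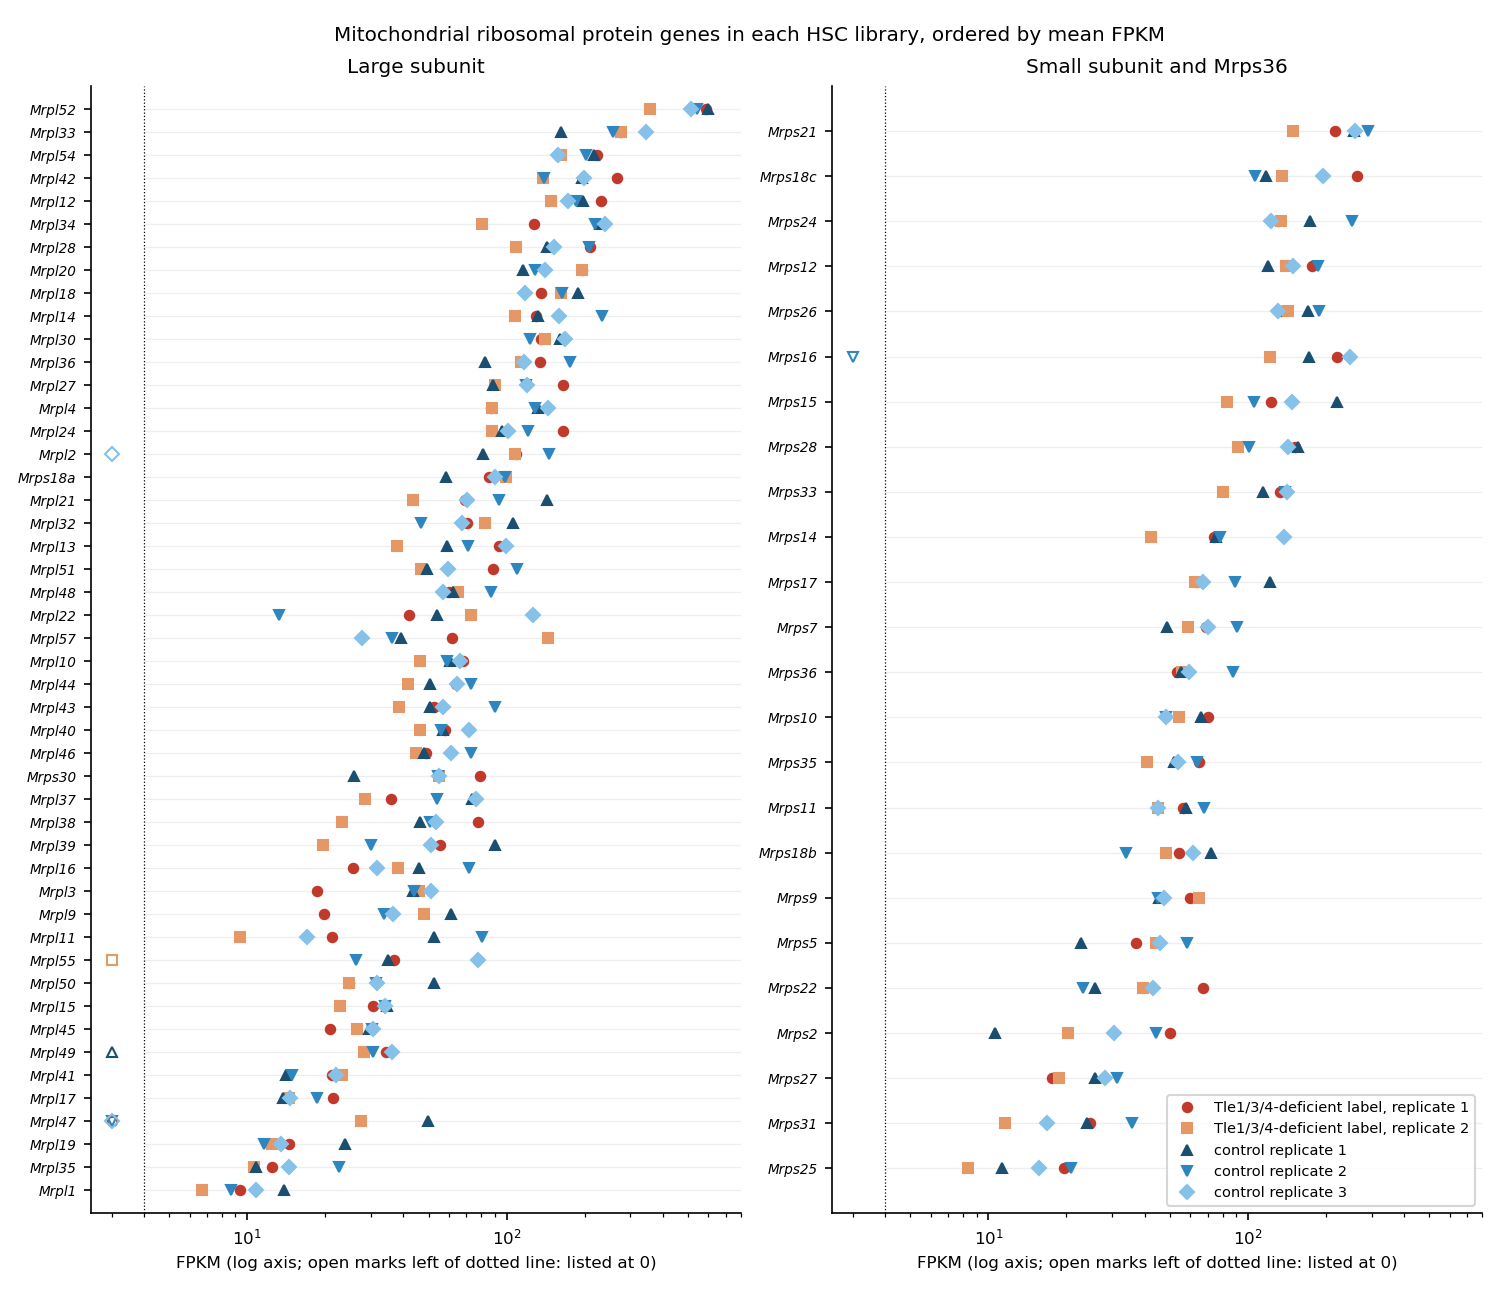
FPKM of each of the 72 members (rows, ordered by mean) in each of the 5 libraries on a log axis, with large-subunit genes on the left and small-subunit genes and Mrps36 on the right. Open marks left of the dotted line are values listed at 0. Mrpl52 was highest in every library, and the marks of deficient-labelled replicate 2 often lie at the low end of a row.

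The most abundant member was Mrpl52, a large-subunit protein with no bacterial counterpart, with 586 and 356 FPKM in the libraries labelled deficient, against 600.4, 543 and 512 FPKM in the controls. Next came Mrpl33, a small homologue of a bacterial protein, at 274 and 277 FPKM against 162, 257 and 345 FPKM. Mrps21, the most abundant small-subunit gene, was at 217 and 149 FPKM against 257, 290.0 and 258 FPKM. Of these 3 genes, only Mrps21 had groups that did not overlap. The other members of the 10 highest were Mrpl54, Mrpl42, Mrpl12, Mrpl34, Mrpl28, Mrps18c and Mrps24, with means between 163 and 192 FPKM, which is closer together than the spread of most of them over libraries.

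By subunit, the median of the member means was 67.4 FPKM for the small and 60.7 FPKM for the large subunit. Homologues of bacterial proteins were at a median of 81.4 FPKM in the small subunit (16 genes, 31.2 to 234 FPKM) and 79.2 FPKM in the large (30 genes, 9.86 to 263 FPKM). Genes for proteins specific to mitochondria were at a median of 39.7 FPKM in the small subunit (7 genes, 15.2 to 153 FPKM) and 56.4 FPKM in the large (18 genes, 19.1 to 519.5 FPKM). The ranges of both classes overlapped widely, and the difference between classes was not tested.

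Within a gene, the highest library was typically 1.95 times the lowest (median over the 67 members without a 0). The range exceeded 2-fold in 33 members and 3-fold in 11, and it was under 1.5-fold in 7. The median SD of log2(FPKM + 1) over the controls was 0.33 in the members, against 0.47 in all tested genes without a 0 and 0.41 in those whose mean lay within the members' range. Steadiest was Mrpl30, at 136 and 141 FPKM against 160.2, 124 and 168 FPKM. Next by SD were Mrpl10, Mrpl40, Mrpl45 and Mrps26, all with a log2 SD of 0.21 to 0.23. The most variable without a 0 was Mrpl11, at 21.2 and 9.38 FPKM against 52.3, 80.1 and 17.0 FPKM. Mrpl22 ranged most by ratio (9.56-fold), at 42.0 and 73.1 FPKM against 54.1, 13.3 and 127 FPKM, and Mrpl57, Mrps2 and Mrpl39 were the next most variable by SD. In Mrpl11 and Mrpl22 the controls alone spanned most of the range.

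The 5 libraries did not share 1 level of the module. Summed over members, FPKM came to 6930 and 5333 in deficient-labelled replicates 1 and 2, against 6590, 6835 and 6727 in control replicates 1, 2 and 3. As a share of all FPKM this was 1.01% and 0.890%, against 1.07%, 1.06% and 1.03%. By share both deficient-labelled libraries thus lay below every control, replicate 1 just below the lowest and replicate 2 further down. By summed FPKM replicate 1 lay above every control and replicate 2 below. With the 10 granulocyte markers left out of the total, a choice made after seeing the data, the shares were 1.03% and 1.001% against 1.07%, 1.07% and 1.04%. Deficient-labelled replicate 2 held the lowest value of 33 of the 67 members without a 0 (49.3%), against 28.7% of tested genes without a 0, and the highest value of 4. Deficient-labelled replicate 1 held the lowest value of 7 members (10.4%), against 21.1% of tested genes without a 0, and the highest of 16. The matching shares of tested genes for the highest value were not computed.

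Measured gene by gene against the control mean on the log2(FPKM + 1) scale, the median member stood at 0.019 in deficient-labelled replicate 1 and at -0.32 in replicate 2. The medians of all tested genes in the same libraries were -0.029 and -0.14. Both subunits took part, with a median of -0.35 for the small and -0.33 for the large subunit in replicate 2, and of 0.021 and -0.027 in replicate 1. Cytosolic ribosomal protein genes stood at 0.034 and -0.67 in the same libraries. Between the deficient-labelled libraries, 47 of 67 members (70.1%) were lower in replicate 2, against 56.8% of tested genes without a 0. After median-of-ratios scaling, which sets libraries equal at the median gene, the member median was 0.072 in replicate 1 and -0.12 in replicate 2, against -0.085, 0.094 and -0.0038 in control replicates 1, 2 and 3. On that scale deficient-labelled replicate 2 lay just below the lowest control. The part of the granulocyte and other markers in this difference between libraries was not tested. Leaving the granulocyte markers out of the total raised each share by construction, most where these markers were most abundant.

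**Figure D2:**
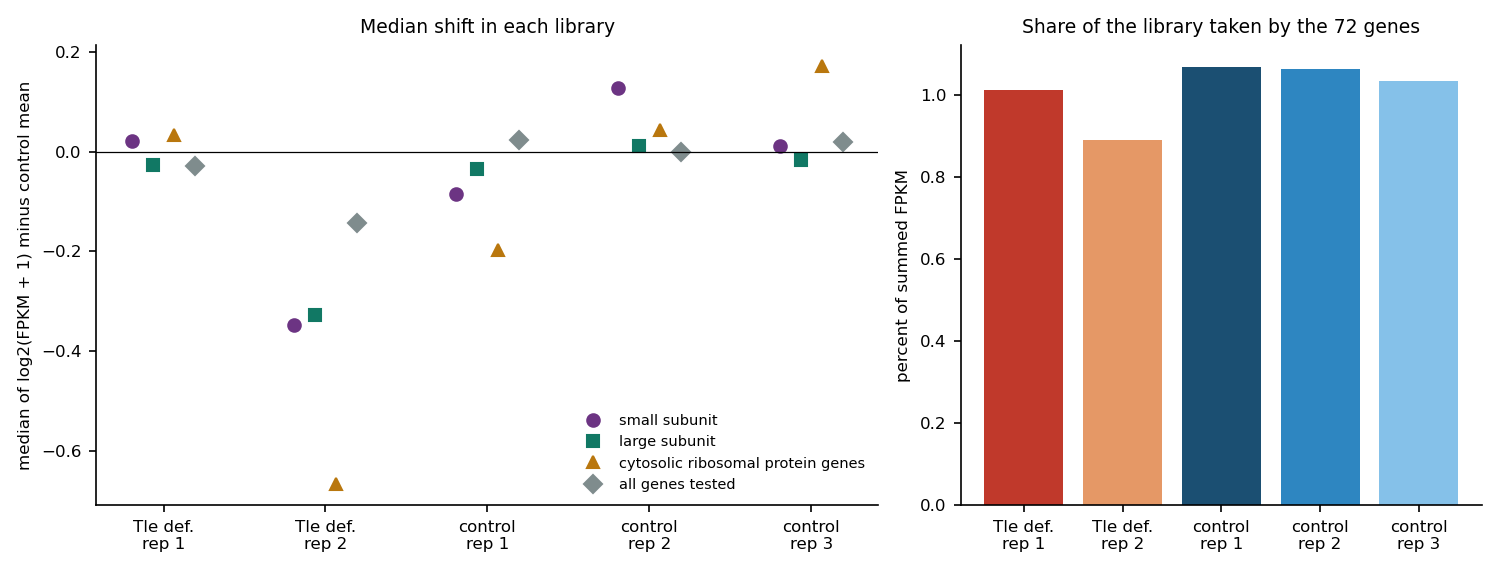
Left, the median over genes of log2(FPKM + 1) minus the mean of the 3 controls in each library, for small-subunit and large-subunit members and cytosolic ribosomal protein genes (genes without a 0) and for all genes tested. Right, the percent of summed FPKM taken by the 72 members. Both subunits stood near 0 in deficient-labelled replicate 1 and at -0.35 and -0.33 in replicate 2, and each control contributes to the mean it is set against.

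Between the groups, no member passed the threshold. With limma on log2(FPKM + 1) and Benjamini-Hochberg adjustment over all genes tested, 0 of 72 members had an adjusted p under 0.05, against 2 of 10570 genes (0.0189%), 1 of them higher (0.00946%) and 1 lower (0.00946%), and the lowest adjusted p of a member was 0.433. At an unadjusted p under 0.05 there were 5 members (6.94%), against 8.45% of all genes tested. The median log2 fold change of the members was -0.15, against -0.10 over all genes tested, and it was -0.15 for the small and -0.17 for the large subunit. Fold changes were negative in 47 of 72 members (65.3%), against 55.7% of all genes tested. Without the 5 members that have a value of 0, the median was -0.20 and 46 of 67 were negative. After median-of-ratios scaling the median of all genes was 0.012, a shift of over 0.1, the member median was -0.028 and 39 members were negative, so the members lay 0.04 to 0.05 below the median gene on both scales. Without deficient-labelled replicate 2 the member median was 0.021, and without replicate 1 it was -0.30.

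**Figure D3:**
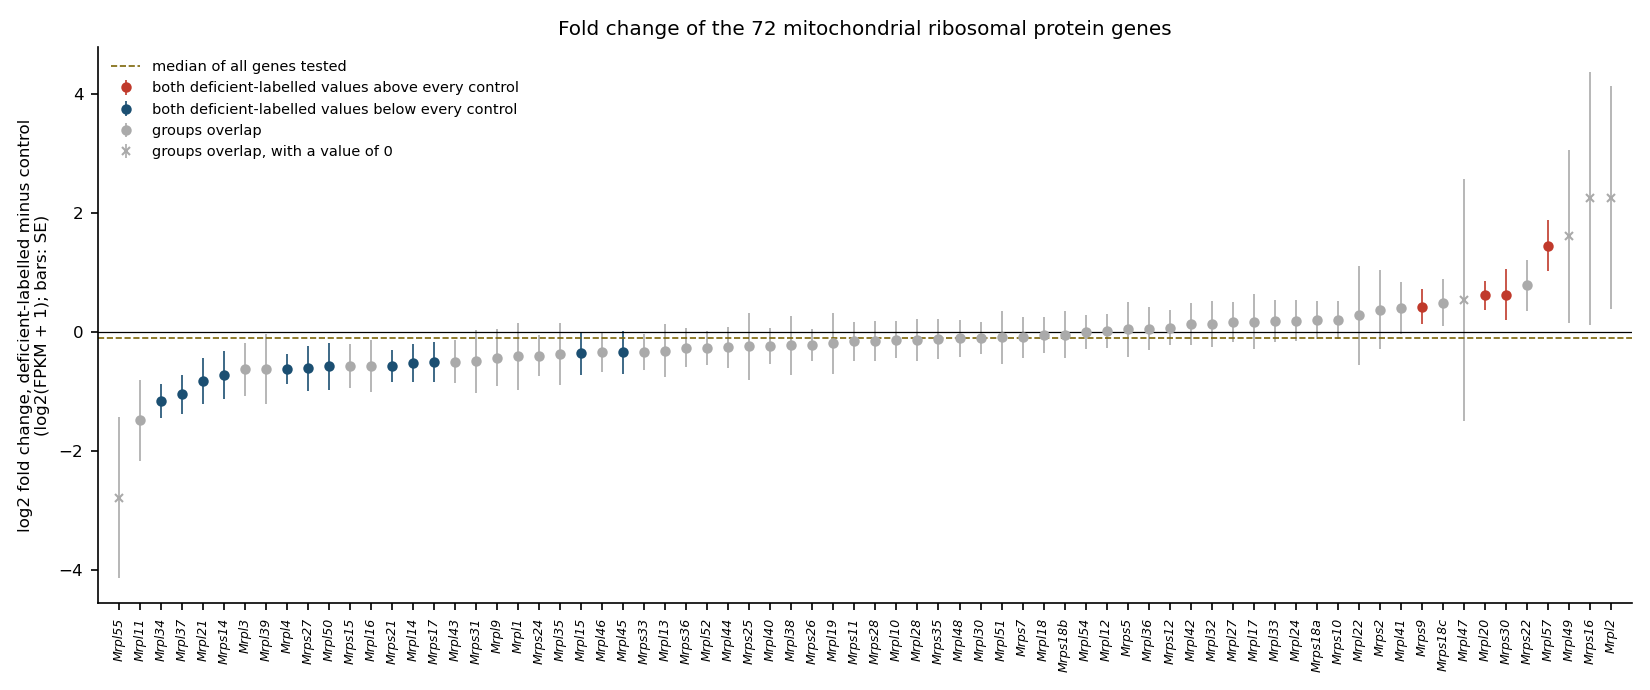
Fold change of each of the 72 members on the log2(FPKM + 1) scale, deficient-labelled minus control, with its standard error, ordered by size. Colour marks whether both deficient-labelled values lay above every control (4 members), below every control (12) or overlapped, crosses mark members with a value of 0, and the dashed line is the median of all genes tested at -0.10.

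In 4 members (5.56%) both deficient-labelled values lay above every control, against 10.2% of all genes tested, and in 12 members (16.7%) both lay below, against 15.9%. The 16 members whose groups did not overlap compare with 26.1% of all genes tested. The share above was below its background and the share below was close to it. After median-of-ratios scaling 5 members lay above (13.5% of tested genes) and 7 below (12.5% of tested genes), the 7 being among the 12 and the 5 including the 4. Fewer libraries leave fewer values to clear, and the shares over all genes tested move too. Without deficient-labelled replicate 1, 6 members (8.33%) lay above, against 21.6% of genes tested, and 37 (51.4%) below, against 33.5%. Without deficient-labelled replicate 2, 18 members lay above, against 26.7% of genes tested, and 16 (22.2%) below, against 28.8%. Leaving out control replicate 1 gave 6 above (15.5% of genes tested) and 20 below (23% of genes tested). Leaving out control replicate 2 gave 5 above (14.9%) and 16 below (23.4%), and leaving out control replicate 3 gave 8 above (15.1%) and 18 below (22.5%). The values of up to 8 of these members in each direction, taken by size of fold change, follow, and none of the 12 fold changes passed.

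The largest separation was that of Mrpl34, the homologue of a short, highly basic bacterial large-subunit protein. It read 128 and 80.6 FPKM in the libraries labelled deficient, against 228, 219.7 and 239 FPKM in the controls. The controls lay within 20 FPKM of each other and both deficient-labelled values were far below them (limma log2 fold change -1.17 with an SE of 0.29, adjusted p = 0.433). Mrpl37, a large-subunit protein specific to mitochondria, was at 35.7 and 28.4 FPKM against 73.3, 54.2 and 76.4 FPKM (log2 fold change -1.05, SE 0.33, adjusted p = 0.462). Mrpl4, the homologue of a bacterial protein that reaches into the exit tunnel, was at 87.0 and 87.7 FPKM against 132, 129 and 144 FPKM (log2 fold change -0.62, SE 0.25, adjusted p = 0.564). In Mrpl34 and Mrpl4 the gap between the groups was wider than the range within either group, whereas in Mrpl37 the controls spread over more than the gap.

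Another 5 lower-lying members followed. Mrpl21 was at 69.1 and 43.5 FPKM against 143, 93.4 and 70.5 FPKM (log2 fold change -0.83, adjusted p = 0.618), so its lowest control was close to the nearer deficient-labelled value. Mrps14, a protein of the small-subunit head, was at 74.0 and 42.3 FPKM against 75.3, 78.3 and 138 FPKM (-0.73, adjusted p = 0.662). Its groups were apart by little more than 1 FPKM. Mrps27, a pentatricopeptide repeat protein of the small subunit, was at 17.6 and 18.8 FPKM against 25.8, 31.3 and 28.1 FPKM (-0.61, adjusted p = 0.69), with a gap between the groups wider than the range within either. Mrpl50 was at 24.6 FPKM in both deficient-labelled libraries, against 52.5, 31.3 and 31.7 FPKM (-0.58, adjusted p = 0.71). Mrps21, given above, had a log2 fold change of -0.57 (adjusted p = 0.618). Of the same 12 lower members, Mrpl14, Mrps17, Mrpl15 and Mrpl45 had smaller fold changes, between -0.52 and -0.34.

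Of the 4 higher members, Mrpl57, a small large-subunit protein specific to mitochondria, stood furthest apart, at 61.4 and 144 FPKM against 39.1, 36.0 and 27.6 FPKM (log2 fold change 1.45, SE 0.43, adjusted p = 0.439). Most of that difference lay in deficient-labelled replicate 2, and without it the log2 fold change was 0.84. Mrpl20, the homologue of a bacterial protein that binds ribosomal RNA early in assembly, was at 196 and 195 FPKM against 115, 129 and 140.2 FPKM (0.61, SE 0.25, adjusted p = 0.565). Mrps30 was at 79.3 and 54.9 FPKM against 25.7, 54.6 and 54.7 FPKM (0.62, adjusted p = 0.717), so its nearer deficient-labelled value and the upper controls were nearly equal. Mrps9, a protein of the small-subunit head, was at 59.7 and 64.7 FPKM against 45.4, 45.1 and 47.7 FPKM (0.42, adjusted p = 0.717). Mrpl20 and Mrps9 each gave like values in both deficient-labelled libraries and a narrow band in the controls.

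**Figure D4:**
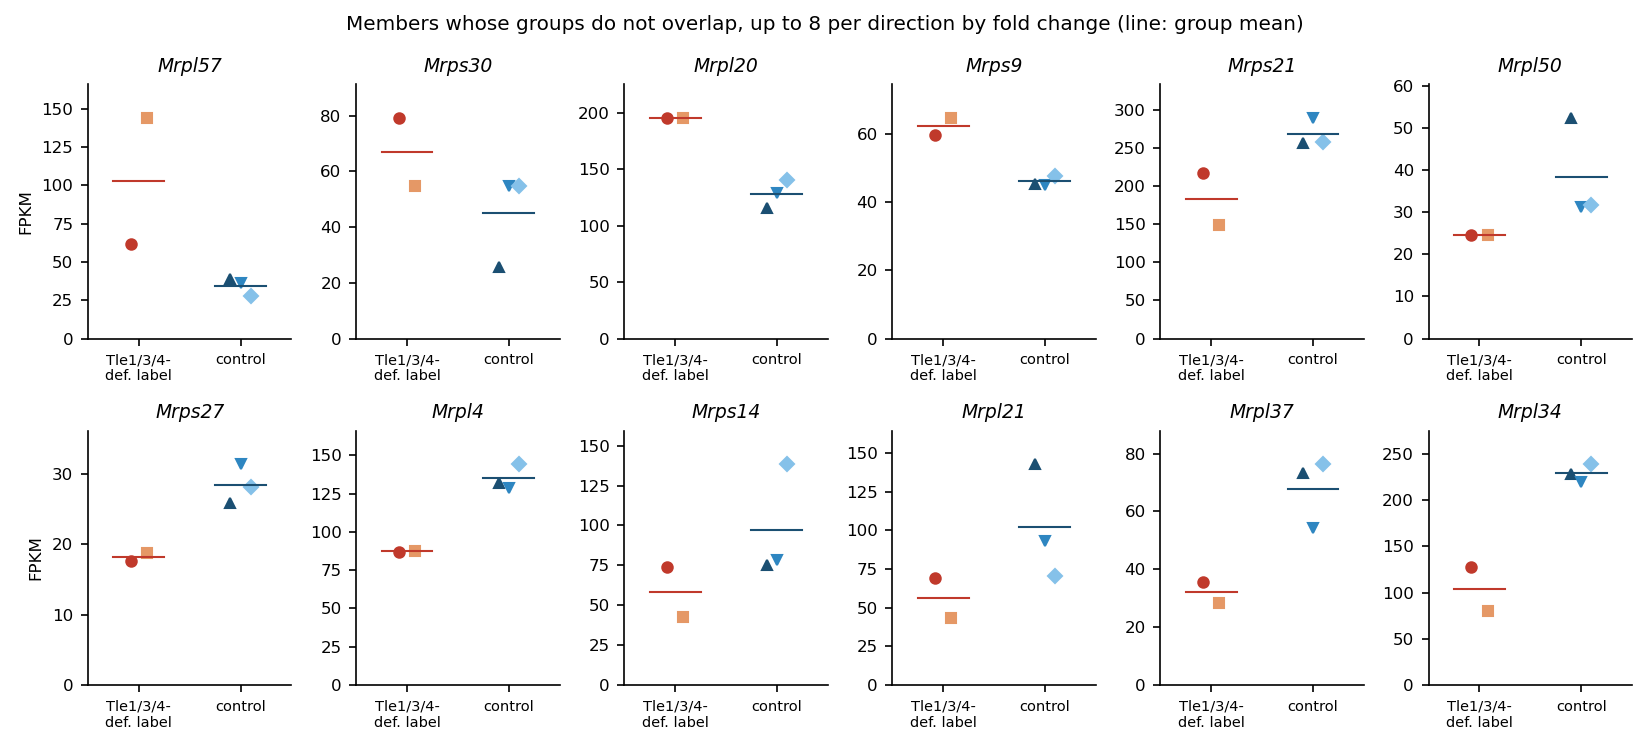
FPKM of 12 members whose groups did not overlap, taken by size of fold change up to 8 per direction, with the deficient-labelled libraries on the left and the controls on the right of each panel, and a line at each group mean. In Mrpl34, Mrpl37, Mrpl4, Mrps27, Mrpl20 and Mrps9 the gap between groups is visible, whereas in Mrps30, Mrpl21 and Mrps14 the nearest values almost touch.

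By position in the ribosome, genes for the stalk that recruits translation factors kept to no common direction. Mrpl12, the homologue of the multi-copy bacterial stalk protein, was at 232 and 148 FPKM against 197, 185 and 173 FPKM, and Mrpl10, which anchors it, was at 67.7 and 46.2 FPKM against 60.4, 58.7 and 65.8 FPKM. In both, the deficient-labelled libraries lay on either side of the controls. Mrpl11, at the stalk base, had the lowest mean of the 4 stalk genes in the table, 15.3 ± 8.33 FPKM against 49.8 ± 31.7 FPKM (SD, n = 2 and 3), and its groups overlapped (adjusted p = 0.614). Mrpl54 was at 224 and 161 FPKM against 217, 202 and 157 FPKM. The log2 fold changes of the stalk genes were positive in 1 and negative in 3, but those of Mrpl12 (0.0075) and Mrpl54 (-0.00047) were close to none.

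In a list of 6 genes for proteins around the end of the exit tunnel, where the nascent chain leaves toward the inner membrane, 3 fold changes were positive and 3 negative. Mrpl4, described above, is not in that list. Mrpl45, which ties the ribosome to the inner membrane, was at 20.9 and 26.4 FPKM against 29.5, 30.3 and 30.4 FPKM, just below every control (log2 fold change -0.34, adjusted p = 0.814). Mrpl24 was at 165 and 87.6 FPKM against 95.8, 121 and 101 FPKM, and Mrpl17 at 21.4 and 14.5 FPKM against 13.8, 18.6 and 14.6 FPKM. Mrpl44, a protein related to ribonuclease III, was at 63.7 and 41.6 FPKM against 50.6, 73.1 and 64.4 FPKM. Mrpl39 was at 55.4 and 19.7 FPKM against 90.1, 30.1 and 51.0 FPKM. Apart from Mrpl45, the groups overlapped in each of these and in Mrpl22.

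In the head and decoding region of the small subunit, Mrps12, the homologue of the bacterial protein at the decoding centre, was at 177 and 140.0 FPKM against 120.1, 186 and 150.01 FPKM. Mrps7 was at 68.7 and 58.7 FPKM against 48.9, 90.6 and 70.3 FPKM, and Mrps10 at 70.5 and 54.3 FPKM against 66.1, 48.3 and 48.4 FPKM. Mrps24 was at 131 and 135 FPKM against 174, 253 and 123 FPKM. In this list of 6 genes, 3 fold changes were positive and 3 negative, with Mrps9 above and Mrps14 below every control.

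Mammals have 3 homologues of a single bacterial small-subunit protein, and each has its own place. Mrps18c, which occupies the bacterial position, was the most abundant, at 263 and 136 FPKM against 117, 106 and 194 FPKM. Mrps18a, whose protein sits in the large subunit, was at 85.7 and 99.6 FPKM against 58.6, 98.4 and 90.1 FPKM. Mrps18b, in the small subunit at another place, was at 54.2 and 48.5 FPKM against 72.03, 33.8 and 61.4 FPKM. The order Mrps18c, Mrps18a, Mrps18b held in 4 libraries as in the means, and in control replicate 1 Mrps18b exceeded Mrps18a. None of the 3 separated the groups, and the log2 fold changes were 0.49, 0.20 and -0.05.

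Of the other genes of the mitochondrial ribosome, 5 of the 7 listed were in the table and none passed. Chchd1, a small-subunit protein, was at 264 and 109 FPKM against 188, 206 and 187 FPKM. Gadd45gip1, a large-subunit protein, was at 42.8 and 15.9 FPKM against 50.2, 117 and 83.9 FPKM, below every control (log2 fold change -1.56, SE 0.52, adjusted p = 0.497). Ptcd3, a pentatricopeptide repeat protein of the small subunit, was at 22.7 and 26.6 FPKM against 43.3, 35.2 and 26.9 FPKM (adjusted p = 0.744). It was also below every control, though its nearest values were almost equal. The list's median log2 fold change was -0.47, with 1 positive and 4 negative. Of its 5 genes 0 lay above every control and 2 below, against 10.2% and 15.9% of all genes tested.

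Mitochondrial translation factors had 0 of 9 past the threshold and none apart from the controls, with a median log2 fold change of -0.30. Tufm, the elongation factor that delivers aminoacyl-tRNA, was at 126 and 66.6 FPKM against 86.8, 99.6 and 86.1 FPKM. Its exchange factor Tsfm was at 32.1 and 57.5 FPKM against 61.8, 80.1 and 33.5 FPKM. Mitochondrial aminoacyl-tRNA synthetases had 0 of 17 past the threshold and a median of -0.074, with Lars2 at 55.0 and 33.9 FPKM against 42.9, 43.4 and 50.7 FPKM and Yars2 at 32.7 and 47.8 FPKM against 64.6, 18.4 and 45.0 FPKM. Outside the range of the controls were Hars2, at 19.8 and 13.9 FPKM against 23.6, 20.5 and 20.2 FPKM, Mars2, at 10.5 and 19.6 FPKM against 9.80, 4.19 and 10.02 FPKM, and Wars2, at 6.86 and 0 FPKM against 24.3, 11.05 and 18.6 FPKM. Thus 1 of 17 lay above and 2 below, against 10.2% and 15.9% of all genes tested. Hars2 and Mars2 lay close to the nearest control, and Wars2 includes an exact 0.

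Among 21 genes of mitochondrial ribosome assembly 0 passed, and the median log2 fold change was -0.063. Rnmtl1, a methyltransferase of the large ribosomal RNA, was at 5.18 and 4.28 FPKM against 38.1, 21.4 and 16.7 FPKM (log2 fold change -2.13, SE 0.55, adjusted p = 0.433). The pair of deficient-labelled values lay far under the lowest control. Rbfa, which helps mature the small subunit, lay the other way, at 142 and 125 FPKM against 97.3, 82.1 and 68.5 FPKM (0.70, SE 0.28, adjusted p = 0.564). Eral1, a chaperone of the small ribosomal RNA, was at 11.2 and 10.7 FPKM against 48.9, 11.9 and 16.5 FPKM, just below every control. Mpv17l2 was at 100.3 and 37.9 FPKM against 82.9, 76.7 and 42.2 FPKM. In this list 1 gene lay above every control and 2 below, against 10.2% and 15.9% of all genes tested.

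Of 14 genes that maintain and express mitochondrial DNA 0 passed, with 9 fold changes positive, 5 negative and a median log2 fold change of 0.09. Ssbp1, the single-stranded DNA-binding protein of the mitochondrial genome, was at 56.05 and 44.0 FPKM against 139.7, 136 and 159 FPKM. Its groups lay far apart (log2 fold change -1.52, SE 0.28, adjusted p = 0.345). Slirp, which stabilises mitochondrial messages, was at 376 and 171 FPKM against 160, 242 and 269 FPKM, and the helicase Supv3l1 at 22.1 and 14.2 FPKM against 12.9, 9.49 and 13.8 FPKM. Supv3l1 lay just above every control, and Mterf1a, at 5.27 and 7.65 FPKM against 9.12, 8.37 and 8.02 FPKM, just below. With Ssbp1, 1 of the 14 genes lay above and 2 below, against 10.2% and 15.9% of all genes tested. Among nuclear regulators of mitochondrial genes, 7 were tested, 0 passed and none of the 7 separated the groups. Myc, which promotes ribosome production, was at 192 and 139 FPKM against 211, 314 and 135 FPKM, and Gabpb1, a partner of the ETS factor Gabpa, at 17.7 and 28.1 FPKM against 72.3, 27.8 and 36.6 FPKM.

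Many members lie head to head with another gene. In the GENCODE annotation of GRCm38, 32 of 72 members (44.4%) had a protein-coding neighbour on the other strand that starts within 1000 bp and runs the other way, against 17.6% of the 10042 tested genes found there. Mrps11 and Mrpl46 are each other's neighbour, at 56.2 and 44.9 FPKM against 57.6, 67.8 and 45.1 FPKM and at 49.1 and 44.7 FPKM against 48.2, 73.0 and 61.0 FPKM. Mrps12 lies beside Sars2, which encodes a mitochondrial seryl-tRNA synthetase and was at 28.6 and 8.73 FPKM against 7.60, 20.4 and 15.8 FPKM. Among the 25 neighbours in the table that are not members, 3 lay below every control beside a member that did so. These were Tmem63b with Mrpl14, Cyb5rl with Mrpl37 and Ptcd2 with Mrps27. Tmem63b was listed at 0 in deficient-labelled replicate 1. Ighmbp2 lay above beside Mrpl21, which lay below, and was listed at 0 in control replicate 1. Beside members whose groups overlapped, 4 neighbours lay above every control and 2 below. Of those above, Hira was too low to be tested, at 0.350 and 0.199 FPKM against 0 in every control. Zfp661 was listed at 0 in control replicate 2. Over all genes tested, which do not include Hira, 10.2% lay above and 15.9% below. With Ska3 beside Mrpl57 and Zfp189 beside Mrpl50, only the member's groups were apart. In 13 pairs the groups overlapped in both genes. Of 2 neighbours shown after their values were seen, Cyb5rl beside Mrpl37 was at 3.84 and 2.18 FPKM against 7.85, 6.46 and 6.56 FPKM, below every control as Mrpl37 was (adjusted p = 0.704). Ska3 beside Mrpl57 was at 18.2 and 21.4 FPKM against 19.0, 3.51 and 15.1 FPKM, so its groups overlapped where those of Mrpl57 did not.

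The promoters of 64 members were listed in RefSeq (GRCm38.p6), each as 250 bases before to 50 after the annotated start. The core letters bound by ETS factors such as GABP, CCGGAAG or its complement on either strand, stood in 22 of them (34.4%), against 19.8% of 8158 tested genes and 9.12% of all genes listed. The YY1 letters AAGATGGCG stood in 8 (12.5%), against 3.53% of tested genes. The exact consensus palindrome of NRF1 stood in 3 (4.69%), against 2.32% of tested genes. A match describes letters only, and the ETS and YY1 letters share AAG, so that a match to each can overlap. Mrpl37, Mrpl57 and Mrps12 each lie head to head with a neighbour given above. Shown are the promoters of the 3 members with the lowest unadjusted p and, as a further example beside a neighbour, that of Mrps12. They lie at chr8:71464676-71464975 (plus strand), chr4:107066817-107067116 (minus strand), chr14:57825989-57826288 (plus strand) and chr7:28741772-28742071 (minus strand) of GRCm38.p6, are written 5′ to 3′ along the gene, and have the ETS or YY1 letters in capitals.
Mrpl34: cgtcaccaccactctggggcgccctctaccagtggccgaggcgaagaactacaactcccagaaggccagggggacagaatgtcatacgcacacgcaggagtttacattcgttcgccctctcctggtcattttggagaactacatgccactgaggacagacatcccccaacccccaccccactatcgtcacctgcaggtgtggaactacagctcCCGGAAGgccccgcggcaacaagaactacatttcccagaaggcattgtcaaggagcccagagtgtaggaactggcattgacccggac
Mrpl37: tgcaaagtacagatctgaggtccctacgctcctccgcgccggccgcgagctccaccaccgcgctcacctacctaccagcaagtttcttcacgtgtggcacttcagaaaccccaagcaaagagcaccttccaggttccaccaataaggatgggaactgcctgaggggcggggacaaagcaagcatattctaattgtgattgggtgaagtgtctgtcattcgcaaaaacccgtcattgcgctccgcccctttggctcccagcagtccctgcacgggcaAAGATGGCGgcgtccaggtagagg
Mrpl57: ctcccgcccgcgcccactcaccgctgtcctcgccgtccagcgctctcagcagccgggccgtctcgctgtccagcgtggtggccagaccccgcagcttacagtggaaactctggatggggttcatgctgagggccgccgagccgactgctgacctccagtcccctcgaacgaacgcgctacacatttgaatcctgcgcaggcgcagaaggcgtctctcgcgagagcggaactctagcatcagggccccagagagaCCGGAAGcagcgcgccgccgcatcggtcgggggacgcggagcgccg
Mrps12: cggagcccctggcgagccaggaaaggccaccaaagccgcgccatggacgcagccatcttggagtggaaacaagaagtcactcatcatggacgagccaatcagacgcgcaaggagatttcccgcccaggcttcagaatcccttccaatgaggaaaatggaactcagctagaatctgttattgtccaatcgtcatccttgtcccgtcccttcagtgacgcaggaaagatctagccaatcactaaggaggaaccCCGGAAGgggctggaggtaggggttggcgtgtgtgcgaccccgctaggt

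Mrpl34, Mrpl57 and Mrps12 thus each carry 1 ETS match, before the start in Mrpl34 and just after it in the others, and Mrpl37 carries 1 YY1 match after its start. Of the 4 members above every control, all with a listed promoter, 1 had an ETS match and 0 a YY1 match. Of the 12 below, 10 had a listed promoter, with an ETS match in 4 and a YY1 match in 2. The number of CpG pairs was 13 in the Mrpl34 promoter, 17 in that of Mrpl37, 36 in that of Mrpl57 and 16 in that of Mrps12, against a median of 21 over the members and also over the tested genes.

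Some values may include reads of other loci. By symbol, 29 members share exon sequence with another annotated gene in GRCm38, 20 of them with a protein-coding gene, and whether counting used strand is not given in the sources used here. Among the members described by fold change, this holds for Mrpl21 (with Ighmbp2), Mrps27 (with a non-coding gene on the opposite strand) and Mrps30 (with B430218F22Rik). It also holds for Mrpl14 (with its neighbour Tmem63b, on the opposite strand), Mrps18b (with Gm16279, on the opposite strand) and Mrps18c (with Gm43511, on the same strand). In addition 24 members have at least 1 pseudogene copy of 90% identity or more over 200 bases, among them Mrps21 with 3 and Mrps18c with 2. Mrpl34, Mrpl37, Mrpl57, Mrpl4, Mrpl20 and Mrps9 have neither an overlapping exon nor such a copy.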

How the data were processed

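RNA-seq of 5 HSC libraries, grouped and numbered by their titles, was used. The authors deposited FPKM per gene symbol for 11643 genes. Per the submitters' processing notes the build was mm9 and the tools named were TopHat and edgeR, without versions or their roles. What annotation, filters and FPKM tool were used was not given in the sources used here.

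The 10570 genes whose mean reached 1 FPKM were transformed to log2(FPKM + 1) and fitted together in limma 3.58.1 (R 4.3.3) by group alone, with trended eBayes and two-sided tests, adjusted by Benjamini-Hochberg over all of them, with a threshold of 0.05. Fold changes on this scale understate those of low genes. The fit was checked on simulated data. Tables were handled in Python 3.11.15 with pandas 2.3.3. Members were named by level (the 10 highest), a value of 0, spread (5 lowest, 5 highest), fold change with non-overlapping groups (up to 8 per direction) and position in the ribosome. The members and lists were chosen with earlier results of these data known.

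Total reads are unknown, so no counting interval is given. From the commonest ratio of values under 0.3 FPKM (tolerance 0.5%, 8 to 36 genes per library), depth relative to control replicate 1 was 1.11 and 1.28 in the deficient-labelled libraries and 1.11 and 1.46 in control replicates 2 and 3. Separate animals per replicate are not stated, so each p-value reflects library-to-library spread that may be technical only. Because FPKM divides by the library total, very abundant genes lower the values of the rest. Neighbours, overlaps, pseudogene transcripts (GENCODE M21) and promoters (RefSeq) were looked up by symbol in GRCm38, a later build than mm9. Alternatives covered the pseudocount, filter, scaling, eBayes options, a replicate block and leaving out each library. A lymphoid marker list is not reported here.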

Additional observations from a re-analysis of the deposited data

How the results depend on the processing

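No member passed the threshold under any of the 13 alternatives to the fit, the lowest adjusted p of any being 0.223 (limma, without deficient-labelled replicate 1). The log2 fold change ran from -1.49 to -0.84 for Mrpl34 (adjusted p 0.223 to 0.733) and from 0.84 to 2.06 for Mrpl57 (adjusted p 0.238 to 0.743), and their sign was fixed by the choice of members whose groups do not overlap. The 2 genes past the threshold over all genes became 0 with a pseudocount of 0.1 and with no filter, 1 without the trend, 4 with median-of-ratios scaling, 5 with robust eBayes and 0 to 5 when single libraries were left out. With the replicate number as a block there were 22. The numbers are shared by the groups only for 1 and 2, and control replicate 3 adds nothing to that fit. The deviations of same-numbered libraries from their group means correlated at 0.035 and 0.0069 across genes. In the 2 deficient-labelled libraries these deviations mirror each other, so the correlations cannot settle whether same-numbered samples were paired. Members below every control numbered 7 after median-of-ratios scaling and 16 to 37 when single libraries were left out, against 22.5% to 33.5% of genes tested in the same runs, and members above 5 to 18, against 14.9% to 26.7%. The member median ran from -0.30 to 0.021 and the large-subunit median from -0.30 to -0.027 over the same runs, whose ends were the runs without deficient-labelled replicates 1 and 2. The members' mean share of summed FPKM was 0.952% in the deficient-labelled libraries and 1.06% in the controls. It was 1.13% and 1.24% with the 20 most abundant genes left out of the total, and 1.01% in the controls without the members listed at 0, both by construction. The tables give FPKM without counts, and 2 against 3 libraries limit what could be detected.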
